A study of Mus musculus with 4 samples.

Results

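The 9 genes described here make, degrade, bind or sense retinoic acid: the synthesis enzymes Aldh1a1, Aldh1a2 and Aldh1a3, the degrading enzyme Cyp26b1, the binding proteins Crabp1 and Crabp2, and the receptors Rara, Rarb and Rarg. They were taken by gene symbol, but the choice was made with earlier results of these data known. Each of the 9 had 1 entry among the 26815 entries of the authors' deposited table. All cells were neural stem cells from the cortex of CD-1 mouse embryos at E14.5, bought from a supplier, kept as a monolayer on poly-L-ornithine and laminin with EGF and bFGF, and transduced with an shRNA lentivirus. One group carried a scrambled shRNA (SHC002) and the other a single shRNA against Foxp1, a forkhead transcription factor (pLKO.1_sh_ex15); both had been selected with puromycin at 0.5 µg/mL. Each group held 2 poly(A) RNA libraries, from different passages. The deposited table combines these libraries into 1 comparison of conditions that carry only the codes q1 and q2, with no label or header tying a code to an shRNA, so each direction below is q2 relative to q1. Values per library and per condition were not used, so the spread between replicates and the read depth cannot be given. A difference between fewer expressing cells and less RNA per cell cannot be told apart in such bulk RNA.

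Retinoic acid is a small lipid signal made from vitamin A: dehydrogenases turn retinol into retinal, and the ALDH1A enzymes oxidise retinal to retinoic acid in the step that commits it to signalling. CYP26 enzymes break retinoic acid down, and CRABP proteins carry it through the cytoplasm. In the nucleus it binds receptors of the RAR family, which pair with RXR receptors on DNA and switch between corepressors and coactivators. In the developing nervous system the signal is known for patterning the hindbrain and spinal cord and for promoting neuronal differentiation.

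Of the 9 genes the authors tested 4, namely the enzyme gene Aldh1a1 and all 3 receptor genes. Aldh1a1 was called lower in q2, Rara and Rarg were called higher, and Rarb was not called. The 3 calls among 4 tested genes stand beside 7.63% of all 15315 tested entries called in either direction (Cuffdiff q under 0.05), with 4.24% called higher and 3.39% called lower. The other 5 genes (Aldh1a2, Aldh1a3, Cyp26b1, Crabp1 and Crabp2) were not tested, the status that Cuffdiff gives to loci with too few alignments, as were 42.9% of all entries. The median log2 fold change of the 4 tested genes was 0.48, against -0.05 over the 15197 tested entries with a finite value.

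**Figure D1:**
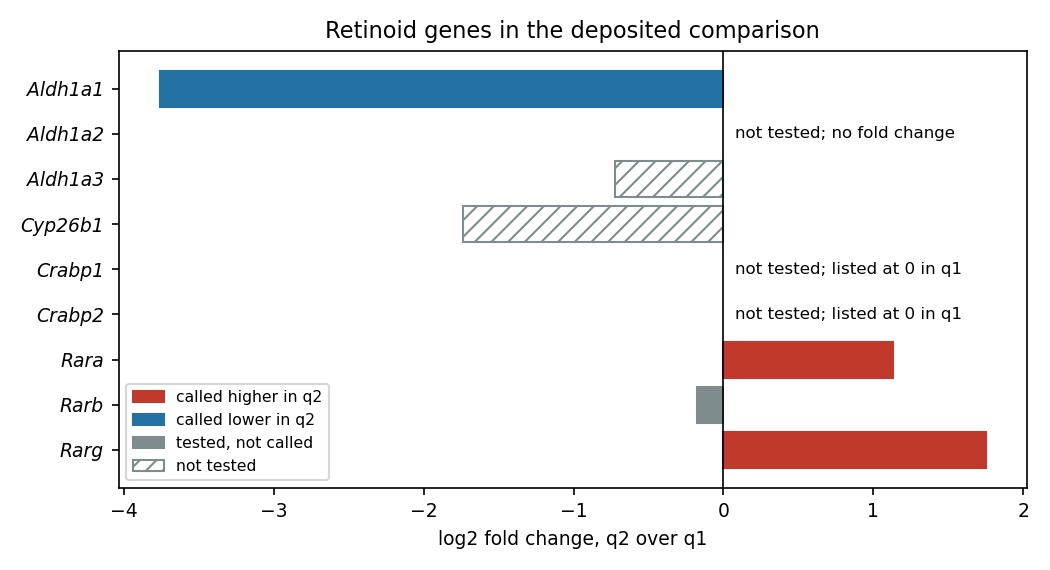
The 9 retinoid genes (y axis) with their log2 fold changes, q2 relative to q1, as deposited by the authors (x axis). Solid bars were tested, with red for higher calls, blue for lower calls and grey for no call; hatched bars were not tested, and text marks genes without a finite or non-zero value. Aldh1a1 reaches -3.76 on the lower side, and Rarg reaches 1.75 on the higher side.

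Aldh1a1, which encodes a retinal dehydrogenase, had a log2 fold change of -3.76 in the authors' deposited table, which is 13.5-fold lower in q2 (statistic -7.43, Cuffdiff q = 0.00162). Its size placed it at rank 21 from the low end among the 15197 finite fold changes, and its statistic at rank 34 by absolute size among the tested entries. The deposited locus lies on GRCm38 chromosome 19 from 20601982 to 20643462, on the plus strand, and no other annotated gene overlaps it. GENCODE also annotates transcripts of the gene that start upstream, at 20492715, outside the deposited locus.

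A near copy of the gene, Aldh1a7, lies 49490 bases downstream on the opposite strand. The longest transcripts of the pair were 89.0% identical over 2040 aligned bases, and 3.06% of the 50-base windows of Aldh1a1 transcripts occurred unchanged in Aldh1a7. Windows here and below were compared in the direction of transcription only, so matches to the opposite strand were not searched. Of the windows of Aldh1a7, 7.49% occurred unchanged in Aldh1a1. Reads from shared windows could be assigned to either gene, so the split between them is uncertain to that extent, a larger share for Aldh1a7. Aldh1a7 had a log2 fold change of -1.04 in the authors' deposited table and was not called (p = 0.012, Cuffdiff q = 0.109). Both entries were thus negative, and only the Aldh1a1 entry passed the threshold; whether their fold changes differ was not tested.

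The other enzymes of the same step gave no test. Aldh1a3 was listed at a log2 fold change of -0.72 in the authors' deposited table, without a statistic. Aldh1a2, the enzyme known for early embryonic retinoic acid synthesis, was untested and has no fold change, so nothing can be said of its direction. The transcripts of Aldh1a1 were 70.7% and 70.3% identical to those of Aldh1a2 and Aldh1a3 over the aligned bases, and shared no 50-base window with either. Cyp26b1, which degrades retinoic acid, was listed at -1.74 in the authors' deposited table, again untested, so neither this nor the Aldh1a3 value can be read as a change. Crabp1 and Crabp2, which bind retinoic acid in the cytoplasm, were listed at 0 in q1 and above 0 in q2, and no fold change is given for them. On GRCm38 the deposited loci of these untested genes are chromosome 9 from 71215789 to 71296243 for Aldh1a2, chromosome 7 from 66390893 to 66427477 for Aldh1a3 and chromosome 6 from 84571414 to 84593908 for Cyp26b1. Crabp1 lies on chromosome 9 from 54764748 to 54773110 and Crabp2 on chromosome 3 from 87948693 to 87953372, and their transcripts were 72.1% identical over 430 aligned bases. No 50-base window of either CRABP gene occurred in transcripts of another gene in the same direction.

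Of the receptors, Rarg and Rara were called and Rarb was not. Rarg, which encodes RAR gamma, had a log2 fold change of 1.75 in the authors' deposited table, or 3.36-fold higher in q2 (statistic 3.36, Cuffdiff q = 0.00162). Rara, which encodes RAR alpha, stood at 1.13, or 2.19-fold higher, in the authors' deposited table (statistic 2.44, Cuffdiff q = 0.0142). Rarb, which encodes RAR beta and is itself a known target of retinoic acid, stood at -0.18 in the authors' deposited table (statistic -0.43, Cuffdiff q = 0.811). Rarg ranked 270 and Rara 717 from the high end among the finite fold changes, while Rarb lay at rank 9333 from the same end. Whether the receptors' fold changes differ from each other was not tested.

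The 3 receptor loci differ in how cleanly they are bounded. Rarg lies on chromosome 15 from 102234938 to 102257522, on the minus strand, with no overlapping gene. Rara lies on chromosome 11 from 98937696 to 98974942, on the plus strand, and overlaps 1 annotated small nuclear RNA gene, Gm22061. The Rarb entry, on the minus strand, spans chromosome 14 from 16430840 to 17082331. On its upstream side it passes the GENCODE gene boundary at 16819156. It overlaps 4 annotated genes on the opposite strand: Top2b, which encodes a DNA topoisomerase, antisense gene Gm48162 and processed pseudogenes Tpi-rs9 and Gm18078. Whether counting used strand is not given in the sources used here, and the separate Top2b entry of the table ends just before the Rarb locus. Each of the 3 genes has 7 annotated transcripts, and the gene-level value does not say which start site was used. Of the 50-base windows of Rara transcripts 0.23% occurred in transcripts of another gene in the same direction, and of those of Rarb or Rarg none did. Matches to the opposite strand, where Top2b lies, were not searched. Aligned stretches of the longest transcripts were 80.5% identical between Rara and Rarg, 78.2% between Rara and Rarb and 77.0% between Rarb and Rarg.

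Rara and Rarg lay high in transcript GC content and Aldh1a1 lower, and a link between GC content and call direction was not tested. The median GC content of Rara transcripts was 59.6% and that of Rarg 58.8%, at percentiles 94.3 and 91.8 of the 11562 genes with a value, and genes of like GC content had median log2 fold changes of 0.28 and 0.26. Aldh1a1 lay at 45.3% (percentile 20.8), where the median was -0.16. With the median of genes of like GC content subtracted, Rara went to 0.85 and lost its call (q = 0.103, against 0.0151 when p was read from the statistic with no such subtraction). Rarg stayed called at 1.48 (q = 0.00374), as did Aldh1a1 at -3.60 (q = 0.00272). Rarb, at 53.3% (percentile 64.7, where the median was 0.01), stayed uncalled at -0.19.

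**Figure D2:**
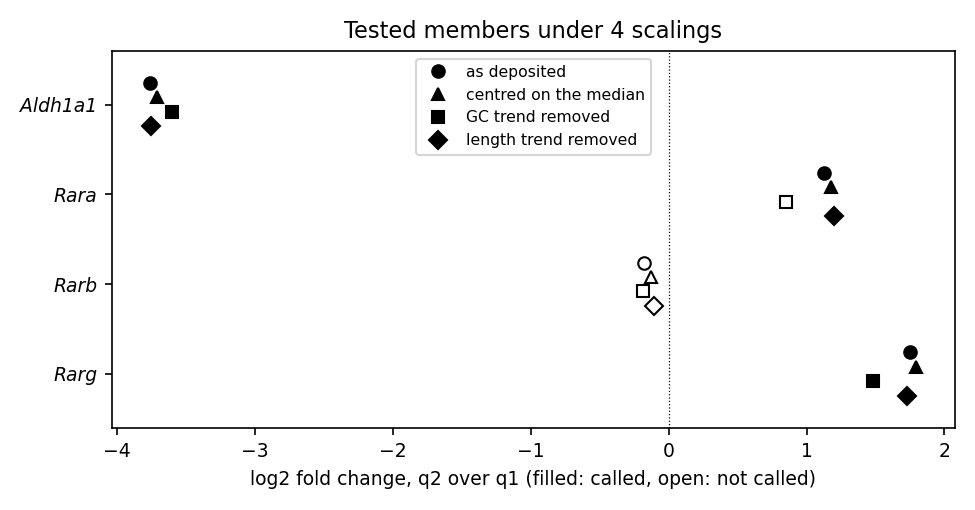
The 4 tested retinoid genes (y axis) with their log2 fold changes, q2 relative to q1 (x axis), as in the authors' deposited table, after centring on the median, and after removal of the trend with transcript GC content or length. Filled symbols are called and open symbols are not; Rara is open with the GC trend removed, at 0.85, and Rarb is open throughout.

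The sequences before the start sites of the called genes and the response element of Rarb are shown because RAR and RXR are known to bind paired hexamers in DNA, and these genes took different calls. Binding was not measured here. Stretches are from RefSeq on GRCm38.p6, 5′ to 3′ on the gene's strand, with hexamers of the receptor motif on either strand in capitals. The hexamers searched were AGGTCA as the usual form, then AGTTCA as the second, GGGTCA as the third and GGTTCA as the fourth, and in a repeat they follow each other on 1 strand. The first 3 are the 250 bases before a start site, in each case the start of that gene with the most hexamers. They are Aldh1a1 at chr19:20601718-20601967 (plus), Rara at chr11:98939461-98939710 (plus, of 4 starts) and Rarg at chr15:102257523-102257772 (minus). The other annotated start of Aldh1a1 and that of Rarg had no hexamer. The fourth is 30 bases around the repeat in Rarb, at chr14:16575506-16575535 (minus). All 250 bases before this Rarb start also lie in annotated exons of the gene.
Aldh1a1: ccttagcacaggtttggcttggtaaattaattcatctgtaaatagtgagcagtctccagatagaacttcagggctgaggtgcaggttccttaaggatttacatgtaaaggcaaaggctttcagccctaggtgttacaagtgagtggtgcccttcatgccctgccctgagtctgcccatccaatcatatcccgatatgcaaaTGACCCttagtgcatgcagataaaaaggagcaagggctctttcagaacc
Rara: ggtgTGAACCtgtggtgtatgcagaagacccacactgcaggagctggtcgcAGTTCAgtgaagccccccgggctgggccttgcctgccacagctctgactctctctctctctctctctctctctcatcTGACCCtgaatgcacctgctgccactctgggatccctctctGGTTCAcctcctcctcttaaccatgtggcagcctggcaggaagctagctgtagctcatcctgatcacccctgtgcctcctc
Rarg: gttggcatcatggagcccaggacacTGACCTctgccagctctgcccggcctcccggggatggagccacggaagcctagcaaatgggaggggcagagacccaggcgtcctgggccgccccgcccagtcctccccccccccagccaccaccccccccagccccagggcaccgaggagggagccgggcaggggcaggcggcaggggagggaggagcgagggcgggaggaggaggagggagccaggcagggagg
Rarb: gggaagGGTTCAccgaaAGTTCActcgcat

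Of 12 RefSeq promoter windows of 300 bases for 7 of the 9 genes (Aldh1a3 and Crabp2 had none), 5 held at least 1 hexamer, against 43.7% of all 32851 promoter windows. Only the Rarb window held a direct repeat spaced by 1, 2 or 5 bases, namely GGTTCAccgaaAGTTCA with a spacer of 5, from -53 to -37 bases relative to the RefSeq start. Such a repeat with a spacer of 5 was present in 0.0974% of all promoter windows, and one with any of the 3 spacings in 0.588%. The match is a description of letters: the gene that held it, Rarb, was not called, and the windows of Rara and Rarg, called higher, held none. Among 81 windows of 61 genes of the wider pathway, those of Cyp26a1 (spacer of 5) and Bco1 (spacer of 1) held a repeat, and neither gene gave a tested entry under that symbol.

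**Figure D3:**
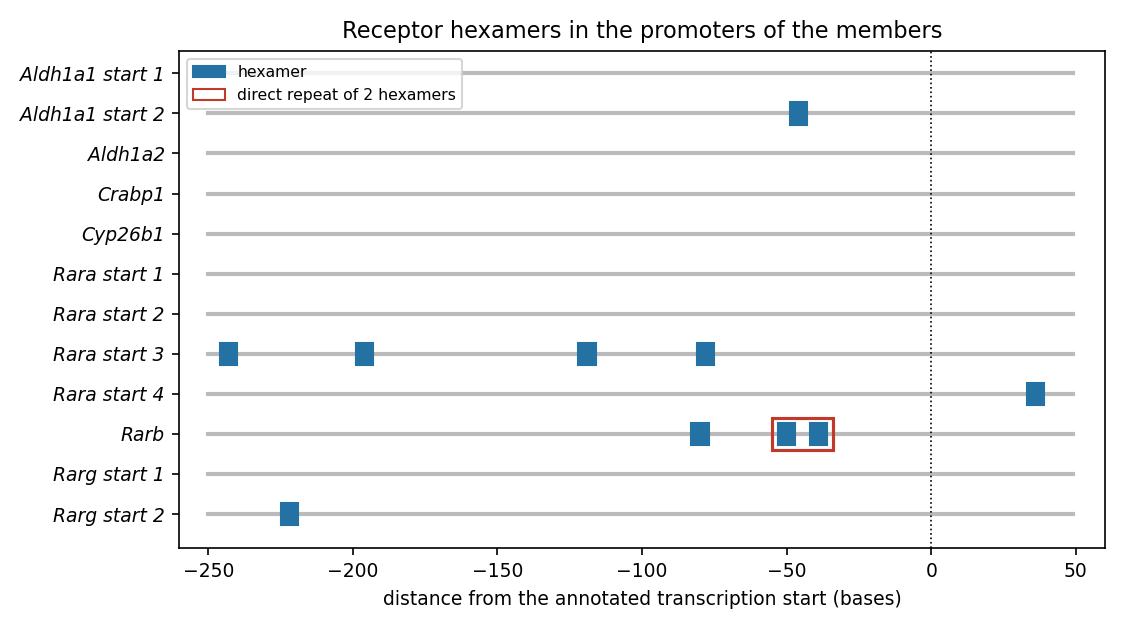
Position of receptor hexamers (blue boxes) in RefSeq promoter windows of 7 retinoid genes (y axis, 1 line per annotated start), in bases from the transcription start (x axis). The red frame marks the 1 direct repeat, in Rarb from -53 to -37; the third Rara start has 4 hexamers.

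Genes around these members were taken from 6 lists of 87 distinct genes, written with earlier results of these data known. Of these, 53 were tested, 2 were called higher, 5 lower and 46 not. These calls are 13.2% of the tested pathway genes, against 7.63% of all tested entries. The lists were read from the 12159 entries with a single gene symbol. Of those 9.56% were called, but with p-values adjusted again among them alone, so that share does not rest on the deposited q-values. An unadjusted p under 0.05 was found for 19.2% of all tested entries and for 21.5% of those with a single gene symbol. The median log2 fold change of the tested pathway genes was -0.05, the same to 2 decimals as that of all tested entries. Of 7 tested retinol and retinal oxidoreductases Cuffdiff called 0, with 0 at an unadjusted p under 0.05, and a list this short would hold few calls at the share over all entries. Rdh10, which makes retinal from retinol in the embryo, stood at 0.14 and Rdh5 and Rdh11, also retinol dehydrogenases, at -0.41 and -0.13 in the authors' deposited table. Of 3 tested genes of retinol uptake and storage, Cuffdiff called 0, with 1 at an unadjusted p under 0.05: the lipoprotein lipase gene Lpl, at 0.51 in the authors' deposited table, beside Dgat1, an acyltransferase, at -0.35.

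Among the partner receptors, 1 of 10 tested was called higher and 1 lower, where 4.24% and 3.39% of all tested entries were. An unadjusted p under 0.05 was found for 4 of the 10. Of all tested entries 19.2% had such a p, and of those with a single gene symbol 21.5%. The orphan receptor gene Nr2f2 (COUP-TFII) stood at -2.44 (Cuffdiff q = 0.00918) and Nr2f6 at 0.85 (q = 0.011) in the authors' deposited table. Nr2f2 shares its deposited locus with another entry, B130024G19Rik. The RXR genes, whose products are the partners of RAR, were not called: Rxra was at 0.63 (q = 0.0848) and Rxrb at 0.33 (q = 0.465) in the authors' deposited table, and Rxrg was not tested. Of 16 tested coregulators 1 was called higher and 1 lower, beside the same shares, and 3 had an unadjusted p under 0.05. The lower one was Ncoa1, which encodes a coactivator of nuclear receptors, at -0.85 (Cuffdiff q = 0.00292) in the authors' deposited table. After removal of the GC trend Nr2f6 went to 0.53 (q = 0.185) and lost its call, while Nr2f2 and Ncoa1 kept theirs at -2.37 and -0.75.

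Of 16 tested genes known to respond to retinoic acid, none was called higher by Cuffdiff and 2 were called lower. In either direction 8 of the 16 had an unadjusted p under 0.05, among them Hoxa3, Hoxa4 and Hoxa5 of 1 shared locus. Over all tested entries 4.24% were called higher, 3.39% lower, and 19.2% had such a p, as had 21.5% of those with a single gene symbol. The homeobox gene Hoxa5 stood at -4.03 (q = 0.0126) and Pdgfra, a growth factor receptor gene of glial precursors, at -2.83 (q = 0.00162) in the authors' deposited table. Hoxa3 at -4.25 (q = 0.243) and Hoxa4 at -4.37 (q = 0.135) were not called in the authors' deposited table, although their fold changes were of similar size. Hoxa3, Hoxa4 and Hoxa5 share 1 deposited locus with 2 further entries, so their values are not separate measurements of separate loci. The Meis genes were at -0.10 for Meis1 and 0.01 for Meis2, and Rai14 stood at 0.76 (q = 0.175), in the authors' deposited table. Cyp26a1 and Hoxb1, genes that retinoic acid is known to induce in embryonic cells, were not tested. Beyond the CRABP proteins, the fatty acid binding protein gene Fabp7, which is also on the neural stem cell list, was called lower at -1.13 (q = 0.00162), and Fabp5, whose product can also carry retinoic acid, stood at -0.03 (q = 0.966), in the authors' deposited table.

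**Figure D4:**
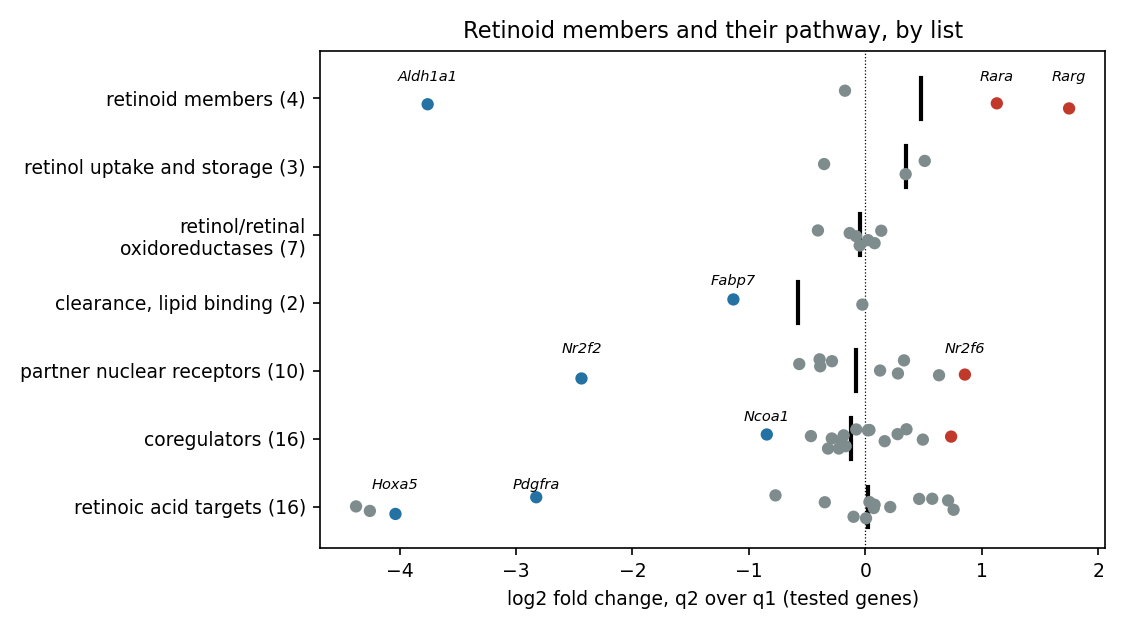
Tested retinoid members and 6 lists of pathway genes (y axis, with the number tested), plotted by the log2 fold change that the authors deposited, q2 relative to q1 (x axis). Each point is a gene, with red for higher calls, blue for lower calls and grey for no call; labels give the called genes named in the text, and black bars mark medians, from -0.58 for clearance and lipid binding to 0.48 for the members.

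In the authors' deposited table Foxp1 itself was lower in q2 by a factor of 4.09 (Cuffdiff q = 0.00162). Of the markers of the labelled cell type, 10 of 11 neural stem cell genes and 5 of 6 cortical genes were tested. Of the 10, Cuffdiff called Nes higher and Fabp7 and Hes5 lower, where 4.24% and 3.39% of all tested entries were. An unadjusted p under 0.05 was found for 4 of the 10, against 19.2% of all tested entries and 21.5% of single-symbol ones. Of the 5 cortical genes, 0 were called and 0 had such a p. A list this short would hold few calls at these shares. With the trend in GC content removed, Nes lost its call (0.62, q = 0.0693), while Fabp7 and Hes5 stayed called. Of 9 astrocyte markers 7 were called lower and none higher in q2, where 3.39% of all tested entries were lower, with Aqp4 at -2.70, Ndrg2 at -2.42, Gfap at -2.06 and Slc1a2 at -1.17 in the authors' deposited table. The 9 spanned -2.70 to 0.29 with a median of -0.88. These calls had the same direction as that of Aldh1a1, and their part in its value was not tested. Of 13 markers of meningeal fibroblasts, cells known to make retinoic acid in the embryo, 6 were tested. Cuffdiff called 1 of these 6 higher, Foxc1 (1.29 in the authors' deposited table, Cuffdiff q = 0.00162), where 4.24% of all tested entries were called higher. The other 5 were not called and had both signs, from -1.05 for Tbx18 to 0.66 for Ptgds in the authors' deposited table. Of 7 choroid plexus markers none was tested, and 1 of 7 endothelial and 2 of 7 microglial genes were, with 0 called by Cuffdiff and 0 at an unadjusted p under 0.05. Markers of other regions gave Ebf1 higher at 1.71 and Gsx1 lower at -1.63 for ventral forebrain, En1 lower at -3.63 for midbrain, and Egr2 higher at 1.29 beside Hoxa5 for hindbrain, in the authors' deposited table. These calls came from 4 tested ventral forebrain, 3 midbrain and 3 hindbrain genes, where 4.24% of all tested entries were called higher and 3.39% lower. Among 4 tested neuron markers Elavl3 was called lower at -1.26 in the authors' deposited table, beside the same share of 3.39%. The other 3 were not called and had both signs, from -0.65 to 0.23 in the authors' deposited table.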

How the data were processed

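RNA was measured in 4 libraries, grouped by sample title. The submitters' processing notes name Cuffdiff, Cufflinks (2.2.1), TopHat2 (2.0.9) and build mm10 (GRCm38). Annotation, filters, strand setting and Cuffdiff's version: not given in the sources used here. The authors deposited 1 table; per the file headers it holds the log2 fold change of q2 over q1, a test statistic (a score), p-values and q-values. All 15315 deposited q-values equalled a Benjamini-Hochberg adjustment within a relative tolerance of 0.001. The authors' p-values stopped at 5e-05, shared by 472 entries, so q = 0.00162 does not rank genes. The 2 columns of per-condition values could not be tied to a group and stayed unused, so depth and precision are unknown.

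Calls are the authors' own across all genes (Cuffdiff q under 0.05), and no list was tested. The members, lists and alternatives were chosen with earlier results of these data known. Text names all members, Foxp1, and called genes of each list (up to 6 of a pathway list, 4 of a marker list), with the largest statistics where fewer than 2 were called; some genes that this rule takes are not reported here. Aldh1a7, Hoxa3, Hoxa4, Nr2e1, Ptgds, Tbx18, Rdh10, Rxra, Rxrb, Rai14, the Meis genes and genes named only as untested were added after values were seen. Transcript GC content (median) and length (maximum) came from GENCODE M21 by symbol for 95.6% of 12090 genes. For trends, the median log2 fold change in 50 bins was subtracted, the statistic was rescaled, and p was read from the authors' relation of p to statistic. The procedure was tested on simulated data in which p depended on the statistic alone. Reading p with no trend removed was added after seeing the data. Starts were converted to count from 1. Software was Python 3.11.15 with pandas 2.3.3, Biopython 1.88, numpy 2.4.6, matplotlib 3.10.9, scipy 1.17.1 and scikit-learn 1.9.0. The labels give passages, not animals, as replicates, so p-values may measure technical spread only.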

Additional observations from a re-analysis of the deposited data

How the results depend on the processing

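Of the 11 alternatives run, 1 of them added after seeing the data, only 3 (centring, and removal of the GC or the length trend) change a fold change; the other 8 change the threshold, the p-values or the entries, and a stricter threshold could not have made Rarb a call. Aldh1a1 and Rarg stayed called under all 11, and Rarb stayed uncalled. Their log2 fold changes ran from -3.76 to -3.60, 1.48 to 1.80 and -0.19 to -0.11. Rara kept its direction, from 0.85 to 1.20, and lost its call under 3: a q under 0.01, p-values from a normal distribution, and the GC trend removed. The count of members called higher was then 1 each time, against 2. Pathway genes called higher by Cuffdiff went from 2 to 0 under those 3 alternatives and with an absolute log2 fold change of at least 1. Those called lower went from 5 to 3 among entries with a locus of their own, as Hoxa5 and Nr2f2 each share a locus with other entries; Hoxa3 and Hoxa4 became called lower wherever p was read from the statistic, Hoxa4 also with normal p-values, and Rxra became called higher at a q under 0.1 and with the length trend removed. Over all tested entries, against 649 higher and 519 lower, a minimum log2 fold change of 1 gave 418 and 269, a q under 0.01 gave 374 and 293, and normal p-values gave 242 and 183. No paired analysis was possible because the table holds no value per library, and no replicate could be left out for the same reason.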

Other observations

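The other members of the same enzyme and receptor families were listed by name after the table had been opened, and their calls stand beside 7.63% of all tested entries called in either direction. Of 13 tested aldehyde dehydrogenase genes outside the 9 retinoid genes, 0 were called higher by Cuffdiff and 2 lower. An unadjusted p under 0.05 was found for 6 of them, against 19.2% of all tested entries and 21.5% of those with a single gene symbol. The folate enzyme gene Aldh1l1, also an astrocyte marker, was at -0.87 (q = 0.0453) and its mitochondrial relative Aldh1l2 at -0.73 (q = 0.0345) in the authors' deposited table. After removal of the GC trend Aldh1l1 went to -1.08 and stayed called, while Aldh1l2 went to -0.66 and was not called. Of 16 further nuclear receptor genes tested, 1 was called higher and 1 lower. The immediate early receptor gene Nr4a3 was at 1.57 (Cuffdiff q = 0.00162) in the authors' deposited table, and it stayed called with the GC trend removed, at 1.49. Nr2e1 (TLX), a receptor gene of neural stem cells, was at -0.67 in the authors' deposited table and was not called (Cuffdiff q = 0.079).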
